A study of Mus musculus with 8 samples.

Results

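Genes of the AP-1 family and the immediate early response were followed in haematopoietic stem cells (HSCs), rare cells that can rebuild every blood lineage. The 10 genes were Fos, Fosb, Fosl1, Fosl2, Jun, Junb, Jund, Atf3, Egr1 and Ier3, taken by gene name out of 22050 genes with an mRNA model. All 10 were present in the count tables. The cells were taken from marrow of inbred C57BL/6 mice, at postnatal day 5 (P5) and at 4 weeks of age, with 4 libraries for each age. No treatment or genetic change was given for either age. HSCs had been sorted by flow cytometry for CD150 and EPCR and against CD48 and lineage markers. Each library was made from 100 cells, so the RNA had to be amplified. The labels do not state whether libraries of 1 age are from different animals, so p-values cover only the spread among these libraries, and that spread may be technical. HSCs cultured for a day, which the series text mentions, were not analysed here. The comparison of P5 with 4 weeks sets stem cells of the newborn against those of the young mouse.

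AP-1 is a transcription factor made of pairs of leucine zipper proteins, in which a Fos, Jun or ATF protein joins a partner to bind DNA. Immediate early genes are switched on within minutes of a stimulus by factors already present in the cell, such as serum response factor and CREB, and most of their RNAs are short-lived. Their response includes factors that start the next wave of transcription and others that shut down the kinases that set it off, and it is also known to follow tissue dissociation.

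Libraries held 6142760 to 7470777 exon reads at P5 and 5775130 to 7212446 at 4 weeks. Reads of Y-linked genes numbered 2 and 0 in P5 replicates 1 and 3, and 1532 to 2293 in the other 6 libraries, so the P5 libraries came from more than 1 animal. Intron reads were 60.1% of exon and intron reads in P5 replicate 1 and 66.8% to 68.7% in the other 7 libraries. The HSC markers Slamf1, which encodes CD150, and Procr, which encodes EPCR, were present at 33.8 ± 4.69 and 55.0 ± 7.996 CPM at P5 and at 36.6 ± 4.404 and 57.1 ± 8.03 CPM at 4 weeks, CPM being exon reads scaled to a common library size (SD, n = 4 each). Cd48 averaged 4.98 ± 3.57 CPM at P5 and 5.10 ± 2.66 CPM at 4 weeks. The 12 HSC markers summed to 5035 to 5574 CPM at P5 and 4632 to 5228 CPM at 4 weeks. Of the 11 of them tested, 2 were called higher and 1 lower at P5 (all genes 7.99% and 8.55%). Ly6a was 2.90-fold lower, at 29.6 ± 4.00 CPM at P5 and 85.9 ± 17.8 CPM at 4 weeks (adjusted p = 1.49e-05 in edgeR's test). Fgd5 averaged 433 CPM at P5 and 285 CPM at 4 weeks, and Mecom 716 and 560 CPM at those ages. The 15 granulocyte and monocyte markers summed to 243 to 496 CPM at P5 and 191 to 229 CPM at 4 weeks, the sum of P5 replicate 2 being the highest. Of the 8 of them tested, 4 were called higher and 1 lower at P5 (median log2 fold change 1.45). Itgam was 4.53-fold higher, with every P5 library above every 4-week library (59.9 ± 15.7 CPM at P5 and 13.1 ± 3.73 CPM at 4 weeks, adjusted p = 1.44e-05). Mpo averaged 5.62 CPM at P5 and 1.46 CPM at 4 weeks, and Ltf 3.13 and 0.666 CPM at those ages. Lyz2, the most abundant of the 15, averaged 172 CPM at P5 and 158 CPM at 4 weeks and was not called (adjusted p = 0.363). Prtn3 averaged 25.8 and 25.5 CPM at those ages. Of the 15, Ctsg had no read in any library, S100a8, S100a9 and Elane had none at P5, and Csf1r, the receptor of macrophages, had 1017 of its 1128 P5 reads in P5 replicate 2. The 11 erythroid markers summed to 584 to 922 CPM at P5 and 94.95 to 199 CPM at 4 weeks, nearly all of it at P5 from the globin Hbb-bt, while Alas2 was at 0 in all libraries. The 8 endothelial markers summed to 328 to 428 CPM at P5 and 236 to 302 CPM at 4 weeks. Of the 7 tested, 3 were called higher and 0 lower at P5. Tek, at 151 CPM at P5 and 96.3 CPM at 4 weeks, and Pecam1, at 140 and 112 CPM, gave most of the sum. Cdh5 had 285 reads at P5 and 1 at 4 weeks. Emcn averaged 41.8 CPM at P5 and 36.7 CPM at 4 weeks, Kdr 5.08 and 4.41 CPM, and Stab2 2.11 and 2.05 CPM. The sums of the 8 B cell markers were 34.1 to 51.7 CPM at P5 and 20.9 to 26.1 CPM at 4 weeks, with Pax5 and Ms4a1 at 0 throughout. Those of 9 T and NK cell and 7 megakaryocyte markers overlapped between the ages, but single genes in them differed in both directions. Of 4 T and NK cell markers tested, 1 was called higher and 1 lower at P5, and of 6 megakaryocyte markers also 1 and 1. Cd4 averaged 15.6 CPM at P5 and 6.09 CPM at 4 weeks, and Nkg7 2.08 and 9.02 CPM at those ages. Gp9 averaged 27.8 and 11.1 CPM, and Itga2b 27.1 and 51.3 CPM, at P5 and 4 weeks. The part of such cells in the results below was not tested. Values of the members without the 2 P5 libraries lacking Y-linked reads are given with their calls, and that set keeps P5 replicate 2. In bulk libraries, fewer cells with an RNA and less of it per cell cannot be told apart.

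In P5 cells, exon reads of Fosl2, Junb, Egr1 and Ier3 were higher than at 4 weeks, and those of Jun and Jund were lower. Of the 8 genes that passed the filter on low counts, 4 were thus called higher and 2 lower (adjusted p under 0.05 in edgeR's quasi-likelihood test). Over all 12235 genes tested, 7.99% were called higher and 8.55% lower. Fos and Fosb did not pass the test, and Fosl1 and Atf3 had too few reads to enter it. The median log2 fold change of the 8 genes, P5 over 4 weeks, was 0.55, beside -0.0042 for all tested genes. The ages did not overlap for 5 of the 8 genes, 3 of them higher and 2 lower at P5, and 21.2% of all tested genes lay apart in one direction or the other.

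Scaled to exon length, Fos was the most abundant of the 10 RNAs at both ages, with 241 ± 111 CPM per kb at P5 and 177 ± 51.9 at 4 weeks (mean ± SD of 4 libraries). Egr1 came next, with 212 ± 54.6 CPM per kb at P5 and 135 ± 21.7 at 4 weeks. The ranges of Fos and Egr1 overlapped at each age, 127 to 394 and 152 to 280 at P5 and 107 to 232 and 110 to 160 at 4 weeks. At P5 the next 4 genes were Fosb at 57.0 CPM per kb, Jun at 47.7, and Ier3 and Junb at 39.7 each, and their ranges overlapped. Jund followed at 24.2, with a range of 18.3 to 30.2 that reached into those of Fosb, Jun and Junb, and Fosl2 at 11.8 CPM per kb lay below it, at most 14.3. At 4 weeks Jun came after Egr1, at 96.6 ± 7.78 CPM per kb, with a lowest library of 89.8 above the highest Fosb library at 67.7. Fosb followed at 50.6, Jund at 37.1, Ier3 at 24.4, Junb at 22.8 and Fosl2 at 6.85 CPM per kb. The ranges of Fosb and Jund overlapped there, as did those of Ier3 and Junb, while the lowest Jund library, at 31.6, was above the highest Ier3 library, at 30.4. Fosl1 and Atf3 were last at both ages, at 0.748 and 1.46 CPM per kb at P5 and at 0.706 and 0.202 at 4 weeks.

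**Figure D1:**
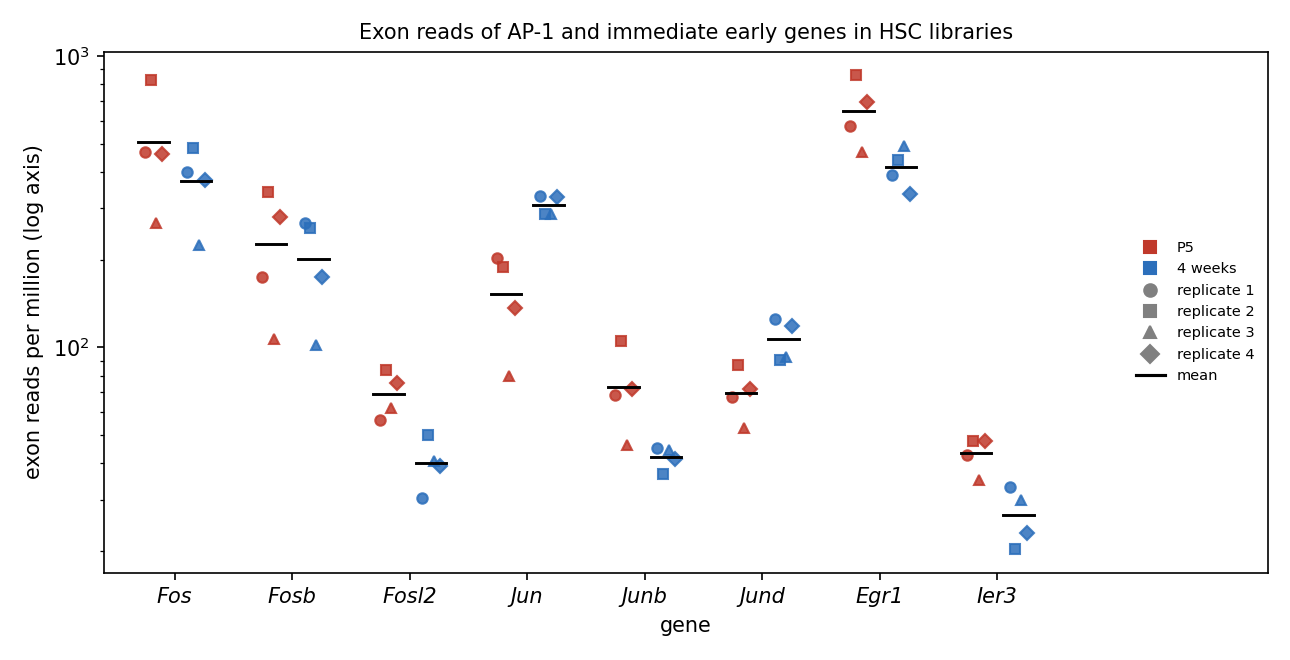
Exon CPM (log axis) of the 8 tested genes, with P5 libraries in red to the left of 4-week libraries in blue, one symbol per replicate number and a bar at the mean of 4 libraries. Jun and Jund lie lower at P5 with no overlap, Fosl2, Junb and Ier3 lie higher with no overlap, and P5 replicate 2 is the highest P5 library for 7 of the 8 genes.

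Fos, the founding partner of Jun in AP-1, lies on chromosome 12 (85473890 to 85477274, GRCm38.p6 positions from RefSeq here and below) and has 4 exons in the deposited gene model. Fos had 469, 825, 266 and 461 exon CPM in P5 replicates 1 to 4, and 401, 485, 224 and 374 CPM in 4-week replicates 1 to 4. The 2 ages overlapped widely, with replicate 2 highest and replicate 3 lowest at each. Its log2 fold change was 0.44 (SE 0.28, adjusted p = 0.312), and an interval of 2 SE ran from -0.11 to 1.00.

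Fosb, a Fos relative also known for a truncated splice form, lies on chromosome 7 (19302696 to 19310118). Its exon level was 174, 341, 107 and 280 CPM in P5 replicates 1 to 4, against 268, 257, 102 and 175 CPM in 4-week replicates 1 to 4. No age stood above the other. The log2 fold change of 0.17 (SE 0.32, adjusted p = 0.773) had an interval of -0.47 to 0.82, and it changed sign to -0.096 without P5 replicate 2 and to -0.048 without 4-week replicate 3. Without P5 replicates 1 and 3 it was 0.63 (adjusted p = 0.211).

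Fosl2, which encodes Fra-2, a Fos protein that lacks the strong activation domain of Fos, lies on chromosome 5 (32136472 to 32157840). It had 56.2, 83.8, 61.9 and 75.4 exon CPM in the P5 libraries and 30.5, 50.1, 40.7 and 39.2 CPM in the 4-week libraries. Every P5 library was above every 4-week library. The level was 1.73-fold higher at P5 (log2 fold change 0.79, SE 0.16, adjusted p = 0.00413). Fosl1, which encodes Fra-1 and lies on chromosome 19 (5447698 to 5455938), had 8, 4, 14 and 8 exon reads at P5 and 7, 7, 5 and 12 at 4 weeks, so no difference was detectable at this depth. In GENCODE vM21 the Fosl1 gene overlaps Ccdc85b on the other strand over 2767 bases, and the library kit does not mark strand, so reads there could belong to either.

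Jun, the main Jun protein and a strong activator in AP-1, is a single-exon gene on chromosome 4 (95049036 to 95052222). It had 203, 189, 79.7 and 136 exon CPM in P5 replicates 1 to 4, against 330, 287, 286 and 328 CPM in 4-week replicates 1 to 4. The 4-week libraries lay close together and above every P5 library. Jun was 2.02-fold lower at P5 (log2 fold change -1.02, SE 0.21, adjusted p = 0.00454), and with libraries lacking Y-linked reads left out the log2 fold change was -0.92 (adjusted p = 0.0015; range over all alternatives 0.00075 to 0.0464). Jun overlaps the antisense gene Junos over 689 bases in GENCODE. All reads listed for Junos numbered 422, 798, 447 and 587 at P5 and 320, 376, 310 and 254 at 4 weeks, which is the opposite order to that of Jun.

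Junb, a Jun protein that activates weakly and can restrain Jun, is a single-exon gene on chromosome 8 (84976909 to 84978748). Its exon level was 68.8, 105, 46.2 and 72.2 CPM in the P5 libraries and 45.2, 36.7, 44.6 and 41.3 CPM in the 4-week libraries. All P5 libraries were above all 4-week libraries, P5 replicate 3 by the smallest margin. Junb was 1.74-fold higher at P5 (log2 fold change 0.80, SE 0.19, adjusted p = 0.0114), a call that was lost with the replicate number as a block (adjusted p = 0.0515; range over all alternatives 0.000719 to 0.0515). It overlaps Prdx2, on the other strand, over 351 bases.

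Jund, the Jun protein known for steady expression in resting cells, is a single-exon gene on chromosome 8 (70697739 to 70700616). It had 67.6, 86.9, 52.7 and 71.9 exon CPM at P5, against 125, 90.8, 92.9 and 118 CPM at 4 weeks. The ages did not overlap, but the highest P5 library and the lowest 4-week library, both replicate 2, lay close together. Jund was 1.53-fold lower at P5 (log2 fold change -0.62, SE 0.15, adjusted p = 0.0112). The call was lost without the 2 P5 libraries lacking Y-linked reads (log2 fold change -0.43, adjusted p = 0.112), with Y-linked reads as a covariate (adjusted p = 0.120) and with exon and intron reads counted together (adjusted p = 0.0559; range over all alternatives 0.00128 to 0.120). Jund overlaps the antisense gene Gm11175 over 919 bases.

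The make-up of Jun family RNA can be given from the same values. Of the exon reads per kb of Jun, Junb and Jund together, Jun took 51.2%, 40.5%, 36.5% and 39.9% in P5 replicates 1 to 4, against 60.4%, 63.6%, 61.4% and 61.8% in 4-week replicates 1 to 4. Junb took 30.0%, 38.9%, 36.7% and 36.7% at P5, against 14.3%, 14.1%, 16.6% and 13.5% at 4 weeks. Neither share overlapped between the ages, whereas that of Jund did, at 22.4% ± 3.45 in P5 cells and 23.6% ± 1.66 in 4-week cells (SD, n = 4 each). The 4 Fos family RNAs together, per kb, amounted to 2.23, 3.38, 2.43 and 2.85 times the 3 Jun family RNAs in the P5 libraries, against 1.54, 2.16, 0.959 and 1.38 times in the 4-week libraries. The lowest P5 value lay just above the highest 4-week value. These shares and ratios were chosen after the values of the genes were seen and describe RNA, not protein, and no test was made of them.

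Promoters of Jun and Junb are shown because these related genes differed between the ages in opposite directions. They run from 250 bases before to 50 bases after the RefSeq start on GRCm38.p6, both genes on the minus strand, at chr4:95052173-95052472 for Jun and chr8:84978699-84978998 for Junb. Capitals mark the octamer TGACATCA, a match to TGACNTCA, in Jun and the letters TATAAA in Junb.
Jun: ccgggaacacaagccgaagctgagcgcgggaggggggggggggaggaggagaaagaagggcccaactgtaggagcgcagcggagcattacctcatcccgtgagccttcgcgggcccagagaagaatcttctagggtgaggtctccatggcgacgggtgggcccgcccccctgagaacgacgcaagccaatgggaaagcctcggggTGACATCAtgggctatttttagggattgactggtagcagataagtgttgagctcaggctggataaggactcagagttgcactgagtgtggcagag
Junb: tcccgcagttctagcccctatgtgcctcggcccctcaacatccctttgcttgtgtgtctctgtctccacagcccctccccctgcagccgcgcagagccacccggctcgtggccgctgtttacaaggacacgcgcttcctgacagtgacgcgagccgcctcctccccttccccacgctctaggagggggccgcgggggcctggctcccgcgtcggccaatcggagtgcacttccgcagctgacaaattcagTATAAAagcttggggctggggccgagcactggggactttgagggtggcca
Both strands were searched. The octamer begins 45 bases before the start of Jun, and TGACNTCA, which includes the cAMP response element TGACGTCA, was present in 8.83% of all 32851 promoters in the table. TATAAA was in 13.6% of them, and among the members in Junb and Fos. It begins at base 1 of the RefSeq start in Junb, not before it, and 33 bases before the start of Fos. RefSeq promoters were matched for 8 members, all but Fosl1 and Egr1. None of the 8 held the CArG box bound by serum response factor (1.63% of all promoters), TGACGTCA (1.79%), the AP-1 site TGANTCA (7.81%) or the EGR site GCGTGGGCG (0.612%) in this window. Sites with other letters, AP-1 sites among them, are not covered by this statement. The Jun octamer TGACATCA was counted under TGACNTCA alone. Sequence further from the start was not searched. GGGCGG, the GC box, was in 6 of the 8, Jund and Junb being the exceptions, and in 35.7% of all promoters. A match is a description of letters in the window.

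Egr1, the zinc finger factor whose loss is known to release mouse HSCs from quiescence, was read most often of all 10 genes. It lies on chromosome 18 (34861207 to 34864956). Its exon level was 576, 859, 468 and 696 CPM in P5 replicates 1 to 4, against 390, 438, 493 and 337 CPM in 4-week replicates 1 to 4. P5 replicate 3 fell within the 4-week range and the other 3 P5 libraries lay above it. Egr1 was 1.57-fold higher at P5 (log2 fold change 0.65, SE 0.16, adjusted p = 0.0138).

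Ier3, an early response gene that protects cells from death, lies on chromosome 17 (35821713 to 35822911) and is listed on 3 contigs, whose reads were summed. It had 42.8, 47.7, 35.1 and 47.7 exon CPM at P5, against 33.2, 20.3, 30.0 and 23.0 CPM at 4 weeks. The ages did not overlap. Ier3 was 1.63-fold higher at P5 (log2 fold change 0.70, SE 0.16, adjusted p = 0.00987), and with uniquely mapped reads alone the call was lost (log2 fold change 0.59, adjusted p = 0.124; range over all alternatives 0.00131 to 0.124).

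Atf3, a stress-induced leucine zipper protein that represses as a pair with itself, lies on chromosome 1 (191170296 to 191183333). It had 4, 66, 0 and 5 exon reads in P5 replicates 1 to 4, and 1, 3, 3 and 3 in the 4-week libraries. The P5 reads came mostly from replicate 2, the library with most Csf1r reads, and the 0 of replicate 3 allows up to 0.485 CPM. Its intron reads were also most in that library, with 76, 464, 15 and 47 at P5 and 63, 72, 91 and 58 at 4 weeks. The intron log2 fold change of Atf3 was 1.13 (adjusted p = 0.328), and without P5 replicate 2 it was -0.50 (adjusted p = 0.538; range over all alternatives 0.112 to 0.855).

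Reads within introns were taken as the signal of unspliced, nascent RNA, without a test of their source. Per base they were denser than exon reads for some members, at 1.27 ± 0.184 times the exon density at P5 and 2.09 ± 0.116 times at 4 weeks for Fosb, and at 2.00 ± 0.292 and 1.4 ± 0.222 times at those ages for Fosl2 (SD, n = 4 each). For Fos the ratio was 0.189 ± 0.0433 at P5 and 0.430 ± 0.0507 at 4 weeks, and for Egr1 0.0973 ± 0.0195 and 0.322 ± 0.0947 at those ages. Jun, Junb and Jund have no intron, so 7 genes could be tested. Fosl2 was called higher and no gene lower at P5, where 9.01% of 13180 genes tested were called higher and 8.86% lower. Fosl2 had 205, 233, 173 and 156 intron CPM at P5, against 62.6, 77.5, 65.1 and 66.9 CPM at 4 weeks. All P5 libraries were far above all 4-week libraries, which lay close together, and 11.1% of tested genes lay higher at P5 with no overlap. The difference was 2.82-fold (log2 fold change 1.49, SE 0.13, adjusted p = 2.35e-05).

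None of the intron differences of Fos, Fosb and Egr1 passed the test. Fos had 29.6, 48.0, 12.3 and 34.0 intron CPM at P5, against 51.6, 50, 31.7 and 43.9 CPM at 4 weeks (log2 fold change -0.52, SE 0.31, adjusted p = 0.273). Egr1 had 8.12, 10.5, 3.44 and 8.46 intron CPM at P5, against 17.3, 9.69, 15.9 and 11.3 CPM at 4 weeks (log2 fold change -0.83, SE 0.31, adjusted p = 0.0891). Egr1 overlapped between the ages through P5 replicate 2 alone, and DESeq2 called it lower (adjusted p = 0.0468; range over all alternatives 0.0468 to 0.406). Without P5 replicates 1 and 3, which lacked Y-linked reads, the intron log2 fold change was -0.11 for Fos, 0.12 for Fosb and -0.51 for Egr1, and without P5 replicate 3 alone it was -0.25 for Fos. With all 8 libraries it was -0.35 for Fosb (adjusted p = 0.492), 0.45 for Fosl1 (adjusted p = 0.337) and -0.052 for Ier3, which had only 7 to 33 intron reads in a P5 library and 9 to 27 in a 4-week library.

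Exon and intron reads of the same gene in the same library were next set against each other. The number of intron reads per 100 exon reads of Fos was 9.12, 11.8, 10.02 and 15.1 in P5 replicates 1 to 4, against 28.3, 21.99, 28.7 and 25.8 in 4-week replicates 1 to 4. Every P5 library was below every 4-week library. The exon difference between the ages exceeded the intron difference by 1.01 on the log2 scale, or 2.01-fold (SE 0.13, adjusted p = 0.000386, edgeR's test of the interaction of age and read kind).

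Egr1 had 2.04, 2.48, 1.59 and 2.49 intron reads per 100 exon reads at P5, against 9.76, 4.72, 6.56 and 7.37 at 4 weeks, again with no overlap. Its exon difference exceeded its intron difference by 1.51 on the log2 scale, or 2.84-fold (SE 0.19, adjusted p = 0.000278). Fosb had 91.7, 115, 119 and 131 intron reads per 100 exon reads at P5, against 179, 185, 203 and 187 at 4 weeks. The Fosb ages were far apart as well, with an excess of 0.55 (SE 0.10, adjusted p = 0.00442), which limma on differences of log2 CPM did not call (adjusted p = 0.0534; range over all alternatives 0.001 to 0.0534).

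Fosl2 differed in the other direction. It had 528, 563, 604 and 424 intron reads per 100 exon reads at P5, against 451, 330, 325 and 375 at 4 weeks, and the ages overlapped through P5 replicate 4 and 4-week replicate 1. The exon difference fell short of the intron difference by 0.69 on the log2 scale (value -0.69, SE 0.16, adjusted p = 0.0139). That call was lost with limma (adjusted p = 0.0897), without P5 replicates 1 and 3 (adjusted p = 0.105) and with junction reads in place of exon reads (adjusted p = 0.678; range over all alternatives 0.00495 to 0.678). Ier3 had 2.23, 10.7, 4.15 and 5.62 intron reads per 100 exon reads at P5 and 12.9, 7.63, 11.2 and 10.2 at 4 weeks, which overlapped, and its excess of 0.79 did not pass the test (adjusted p = 0.210).

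Of the 5 genes with both kinds of read, 3 were thus called higher and 1 lower in exon minus intron difference, where 3.32% of 11399 genes were called higher and 3.08% lower. The 3 higher calls were kept when any 1 library was left out and without both P5 libraries that lacked Y-linked reads, where the excess was 0.88 for Fos, 0.53 for Fosb and 1.41 for Egr1. In the latter fit P5 rests on replicates 2 and 4. Without P5 replicate 2 the excess was 0.99 for Fos, 0.53 for Fosb and 1.54 for Egr1. Intron reads per exon read did not overlap and were lower at P5 for the same 3 genes, where 11.2% of all genes did so. The share of intron reads over all genes did not pass its test, at 65.6% ± 3.67 at P5 and 68.0% ± 0.790 at 4 weeks (mean ± SD of 4; p = 0.171 in a two-sided exact permutation test over 70 splits), P5 replicate 1 being the one library apart.

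**Figure D2:**
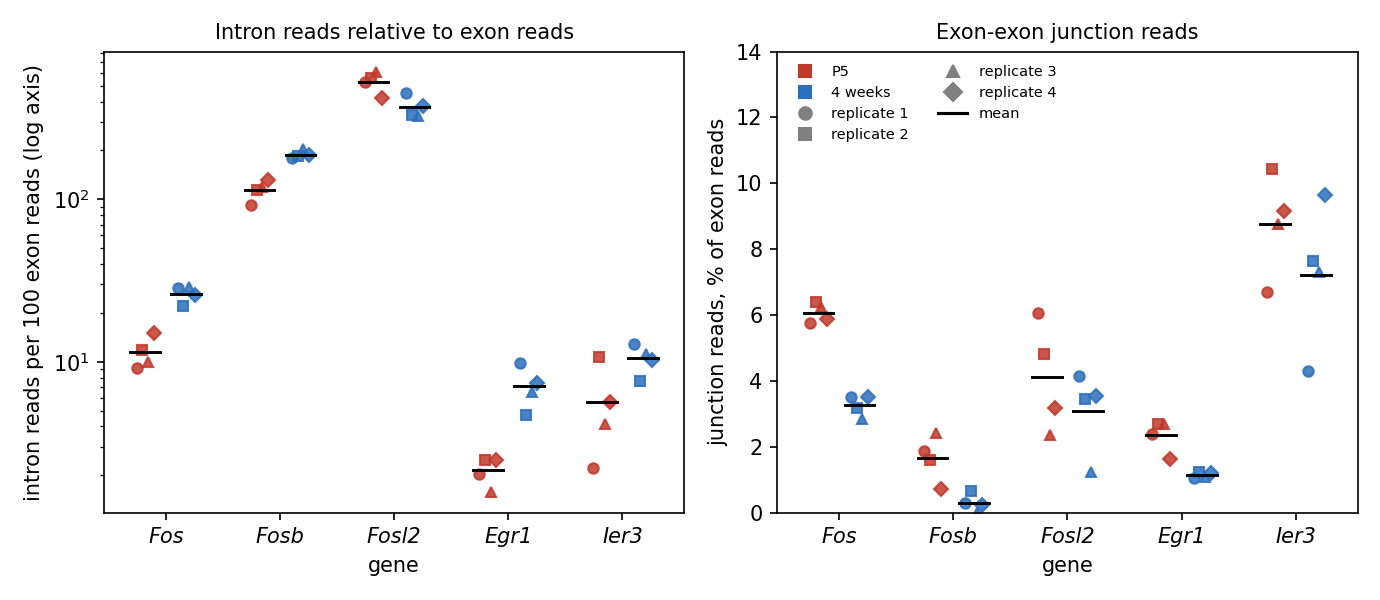
Left, intron reads per 100 exon reads (log axis); right, exon-exon junction reads as a percentage of exon reads; P5 in red to the left of 4 weeks in blue, one symbol per replicate number, bar at the mean of 4 libraries. Fos and Egr1 at P5 lie below 4 weeks on the left and above 4 weeks on the right without overlap.

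Reads that cross a joined pair of exons come from spliced RNA alone, and they were examined after the exon and intron values had been seen. The Fos junctions are shown because the number of reads across them is the most direct sign of spliced Fos RNA. Each is 15 bases on either side, from the GENCODE vM21 transcript on the plus strand of GRCm38, with the downstream exon in capitals. The introns removed run over chr12:85474181-85474934, chr12:85475187-85475591 and chr12:85475700-85475816.
Fos exons 1 and 2: cctgtcaacacacagGACTTTTGCGCAGAT
Fos exons 2 and 3: ggcaaagtagagcagCTATCTCCTGAAGAG
Fos exons 3 and 4: gatacactccaagcgGAGACAGATCAACTT
The introns are 754, 405 and 117 bases long. Junction reads in the files are summed over a gene's junctions.

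Junction reads of Fos, Fosb, Egr1 and Ier3 were higher at P5 than at 4 weeks. Of 5 genes tested, 4 were called higher and none lower, where 4.35% of 9191 genes were called higher and 5.03% lower. The fifth, Fosl2, had 25, 26, 9 and 17 junction reads at P5 against 8, 10, 3 and 10 at 4 weeks (log2 fold change 1.21, SE 0.41, adjusted p = 0.0700). The 4 genes called did not overlap between the ages, and 7.31% of tested genes lay higher at P5 without overlap.

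Fos had 198, 340, 103 and 192 junction reads in P5 replicates 1 to 4, against 89, 89, 38 and 95 in 4-week replicates 1 to 4. Each P5 library had more than any 4-week library, unlike the exon reads of Fos. The normalised level was 2.53-fold higher at P5 (log2 fold change 1.34, SE 0.26, adjusted p = 0.00117). As a share of Fos exon reads, junction reads made up 5.75%, 6.41%, 6.25% and 5.87% at P5, against 3.51%, 3.16%, 2.85% and 3.52% at 4 weeks. Over all genes the share was 22.5% ± 0.376 at P5 and 22.5% ± 0.413 at 4 weeks (mean ± SD of 4; p = 1 in a two-sided exact permutation test).

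Egr1 had 101, 148, 78 and 81 junction reads at P5 and 26, 31, 32 and 29 at 4 weeks. The 4-week libraries were nearly alike and far below those of P5. The normalised level was 3.25-fold higher at P5 (log2 fold change 1.70, SE 0.23, adjusted p = 1.54e-05), and the share of Egr1 exon reads was 2.39%, 2.68%, 2.69% and 1.64% at P5 against 1.05%, 1.22%, 1.09% and 1.19% at 4 weeks.

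Fosb had 24, 35, 16 and 14 junction reads at P5 and 5, 10, 0 and 3 at 4 weeks. Both ages rest on few reads, and the 0 of 4-week replicate 3 allows up to 3. The fitted difference was 4.55-fold (log2 fold change 2.19, SE 0.53, adjusted p = 0.00854). Ier3 had 21, 32, 19 and 31 junction reads at P5 and 9, 9, 13 and 16 at 4 weeks, a 2.06-fold difference (log2 fold change 1.05, SE 0.33, adjusted p = 0.0482) whose call was lost in 7 of the 8 fits without 1 library (adjusted p = 0.041 to 0.139). The junction calls of Fos, Fosb and Egr1 were kept in each of these 8 fits, and Fosl2 was called without P5 replicate 3 (adjusted p = 0.0434). Without P5 replicates 1 and 3 the junction log2 fold changes were 1.70 for Fos, 2.33 for Fosb, 1.87 for Egr1 and 1.33 for Ier3, all called, and 1.38 for Fosl2 (adjusted p = 0.129). Without P5 replicate 2 they were 0.95 for Fos, 1.84 for Fosb, 1.43 for Egr1, 0.89 for Ier3 and 0.99 for Fosl2.

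The junction share of exon reads lay higher at P5 without overlap for Fos, Fosb and Egr1, where 1.74% of genes did so. For Fosb the ages nearly met, at 0.705% in P5 replicate 4 and 0.670% in 4-week replicate 2, from 14 and 10 junction reads. With junction reads in place of exon reads, the excess over the intron difference was 1.90 on the log2 scale for Fos (SE 0.20, adjusted p = 2.41e-06), 2.604 for Fosb (SE 0.44, adjusted p = 0.001) and 2.53 for Egr1 (SE 0.32, adjusted p = 3.61e-05). In that test 2.85% of 9082 genes were called higher and 2.36% lower. The intron and exon read counts of a gene depend on the deposited gene model, whose annotation source is not given in the sources used here.

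**Figure D3:**
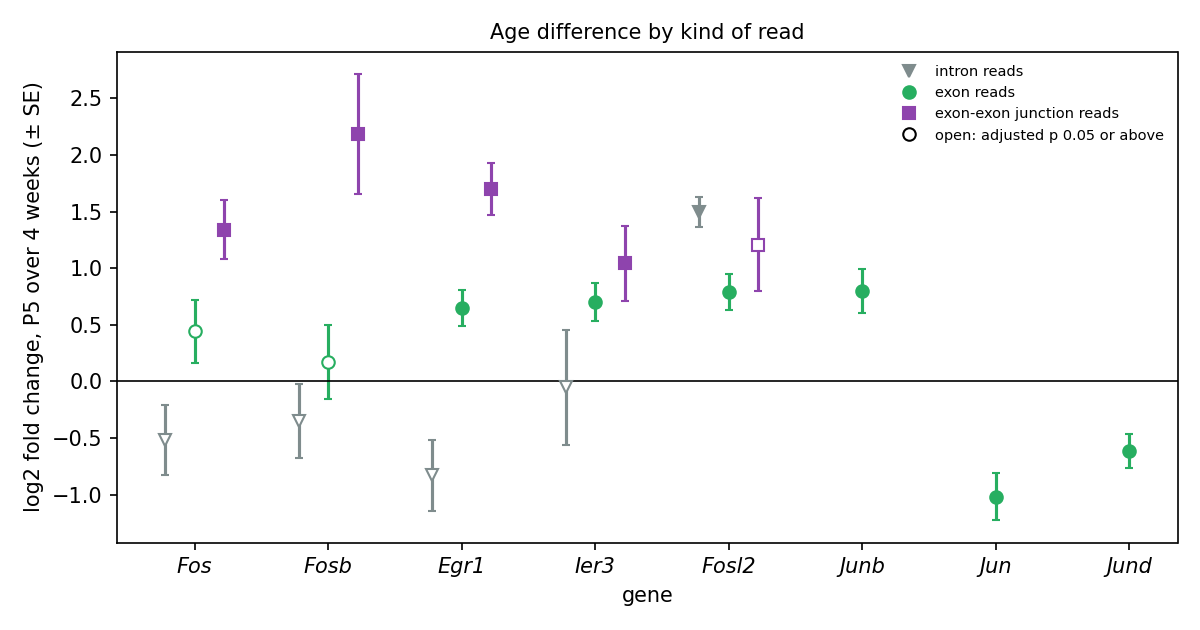
Log2 fold change, P5 over 4 weeks, with its SE, from intron reads (grey triangles), exon reads (green circles) and junction reads (purple squares), each from 4 libraries per age; filled symbols passed the test. For Fos, Fosb and Egr1 the 3 kinds of read are ordered intron, exon, junction from low to high, while Fosl2 is highest in intron reads.

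At P5 the genes tended to be high or low in the same libraries, and at 4 weeks the order of libraries differed more between genes. P5 replicate 2 had the highest exon level of the P5 libraries for 7 of the 8 genes, all but Jun, and P5 replicate 3 the lowest for 7, all but Fosl2. The share of all tested genes with this order was not determined, so it cannot be called particular to these genes. At 4 weeks, replicate 3 was the lowest for Fos, Fosb and Jun and the highest for Egr1, and replicate 1 was the highest for 5 genes. Replicate 2 was there the highest for Fos and Fosl2 and the lowest for Junb, Jund and Ier3. Without P5 replicate 2 the log2 fold changes in exon reads were 0.10 for Fos, 0.69 for Fosl2, -1.14 for Jun, 0.58 for Junb, -0.74 for Jund, 0.49 for Egr1 and 0.65 for Ier3, and all 6 calls held. Without P5 replicates 1 and 3, which lacked Y-linked reads, they were 0.79 for Fos, 0.99 for Fosl2, -0.92 for Jun, 1.07 for Junb, -0.43 for Jund, 0.91 for Egr1 and 0.84 for Ier3, and Jund alone lost its call. P5 then rests on replicates 2 and 4, and replicate 2 was the highest P5 library for 7 of the 8 genes.

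Profiles over the 8 libraries were compared by the root mean square distance of centred log2 CPM among 10226 genes. Those nearest to Fos were Klf6 (distance 0.15), a Krüppel-like factor of the early response, then Btg2 (0.18), an antiproliferative early gene, Fosb (0.28) and Sdhaf1 (0.28), an assembly factor of succinate dehydrogenase. Those nearest to Egr1 were the sialyltransferase St3gal6 (0.16), the exchange factor Arhgef17 (0.18), Thsd4 (0.19) and Junb (0.20). Egr1 ranked 347 in nearness to Fos, and Fos ranked 4872 in nearness to Egr1, at the same distance of 0.45. Junb ranked 92 and Jun 9796 in nearness to Fos. The 8 libraries include both ages, so genes with the same age difference are near each other.

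Most called genes among the other immediate early transcription factors were higher at P5. Of 14 tested, 7 were called higher and 1 lower, with a median log2 fold change of 0.61, where 7.99% of all genes were called higher and 8.55% lower and the median was -0.0042. Klf10, Nr4a2 and Klf2, whose proteins are fast-induced DNA-binding factors, were 1.94-fold, 2.07-fold and 3.45-fold higher (adjusted p = 4.26e-05, 0.00313 and 0.00359), while Myc was 1.56-fold lower (adjusted p = 0.00804). Klf2 had 26.4, 64.7, 14.4 and 29.2 CPM at P5 against 11.1, 9.65, 9.59 and 8.73 CPM at 4 weeks, with P5 replicate 2 far above the rest. Of 27 early genes with other functions, 5 were called higher and 1 lower (median 0.26), against the same 7.99% and 8.55% of all genes. The kinase gene Plk2 was 3.16-fold higher (adjusted p = 3.66e-05), the histone demethylase Jmjd1c 1.32-fold higher (adjusted p = 0.00392) and the pseudokinase Trib1 1.76-fold higher (adjusted p = 0.00545), while the coactivator gene Cited2 was 1.56-fold lower (adjusted p = 0.00766).

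Of 17 further leucine zipper genes that can pair with AP-1 or CREB proteins, 2 were called higher and 1 lower (median 0.12), and the counts of this and the next 2 lists stand beside 7.99% of all genes higher and 8.55% lower. Creb5 was 9.36-fold higher, at 8.80 ± 1.92 CPM at P5 and 0.943 ± 0.924 CPM at 4 weeks (SD, n = 4 each, adjusted p = 0.00076), and Batf2 was 2.72-fold lower (adjusted p = 0.000963). Of 13 feedback genes of the MAP kinase pathway, 2 were called higher and none lower (median 0.27), namely the phosphatase genes Dusp6, 1.79-fold higher (adjusted p = 0.00016), and Dusp5, 2.27-fold higher (adjusted p = 0.00106). Both phosphatases act on ERK. Of 24 upstream kinases and serum response factors, 4 were called higher and 2 lower (median 0.044). The Jun kinase genes differed in direction, Mapk8 being 1.32-fold higher (adjusted p = 0.0178) and Mapk9 1.25-fold lower (adjusted p = 0.012). The ternary complex factor Elk3 was 1.37-fold higher (adjusted p = 0.00525) and the stress kinase Map3k5 1.52-fold lower (adjusted p = 0.00641).

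Of 12 genes of AP-1 turnover and coactivation, none was called higher and 1 lower (median 0.072; all genes 7.99% and 8.55%), namely Nfatc2, an AP-1 partner, 1.43-fold lower (adjusted p = 0.00379). Cops5, which binds Jun, had a fold of 1.19 and did not pass (adjusted p = 0.0955). Of 9 textbook AP-1 targets with enough reads, 5 were called higher and 1 lower (median 0.83), again beside 7.99% and 8.55% of all genes. The hyaluronan receptor Cd44 was 1.64-fold higher (adjusted p = 1.84e-05), vimentin, Vim, 1.94-fold higher (adjusted p = 0.00011) and cyclin D1, Ccnd1, 2.13-fold higher (adjusted p = 0.000355), and haem oxygenase, Hmox1, was 5.06-fold lower (adjusted p = 0.000257). Of 13 heat shock and stress genes none was called higher and 3 lower (median -0.21; all genes 7.99% and 8.55%), among them the chaperones Hsph1, 2.16-fold lower (adjusted p = 0.000528), and Hspa5, 1.24-fold lower (adjusted p = 0.0267).

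Exon minus intron differences of the kind seen for Fos were also called for some of these genes. Among other early and MAP kinase feedback genes, Klf6 (0.89), Btg2 (0.77), Ppp1r15a (0.86), Zfp36 (0.58) and Dusp1 (0.80) were called higher on the log2 scale, and none of these passed the test in exon reads. Nfkbia (-1.29), Tnfaip3 (-1.003), Dusp4 (-1.19) and Spred1 (-0.36) were called lower. These genes were named for their calls. The 44 such genes tested numbered 5 higher and 4 lower, and 3.32% and 3.08% of all genes were called in these directions. Of 13 early transcription factors among them, 1 was called higher and 0 lower. In intron reads, 6 of 13 early transcription factors were called higher at P5 and 1 lower. For 19 early genes with other functions these numbers were 2 and 0, and for 12 feedback genes 2 and 1. Over all genes, 9.01% were called higher and 8.86% lower in intron reads.

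**Figure D4:**
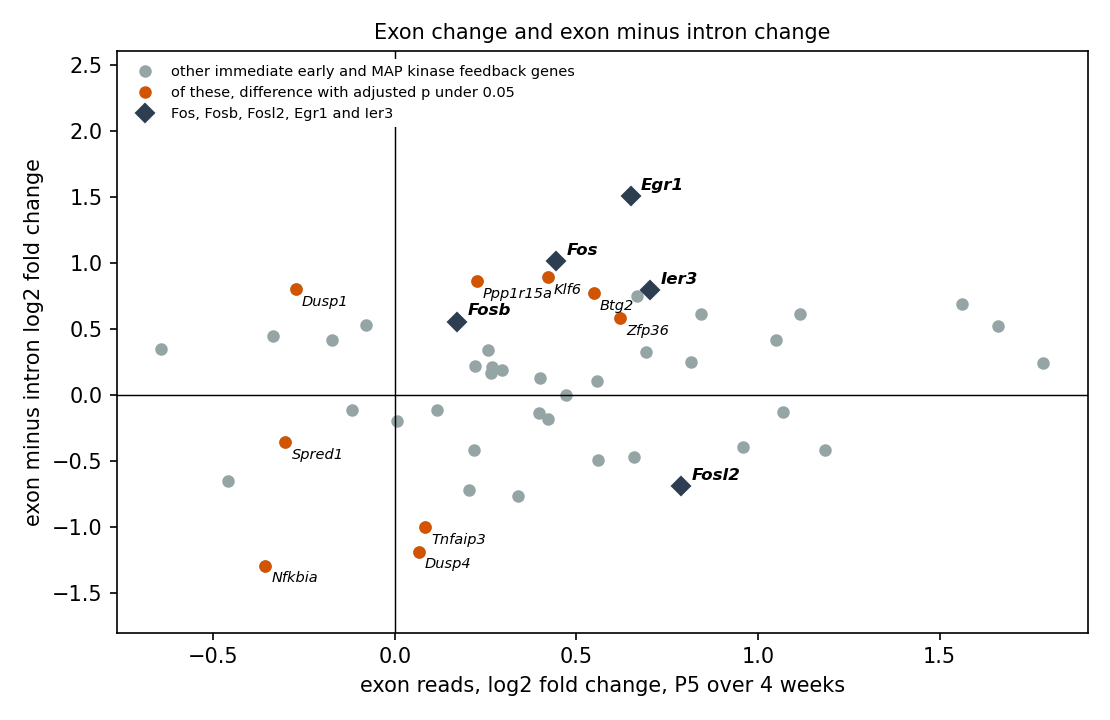
Exon log2 fold change, P5 over 4 weeks (x axis), against the amount by which it exceeds the intron log2 fold change (y axis), for 5 members (diamonds) and for other early and MAP kinase feedback genes (grey, or orange where the y value passed the test). Fos, Fosb and Egr1 lie at 1.01, 0.55 and 1.51 on the y axis and Fosl2 at -0.69.

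Copies of the letters ATTTA in the 3′ untranslated region are known as elements of many short-lived RNAs. The members held a median of 2.2 per kb of that region, from 0.466 in Fosb to 8.16 in Ier3, beside 1.19 over 20055 genes with such a region of at least 50 bases. The 815-base region of Fos held 4 copies, 4.91 per kb, and that of Junb 4.12 per kb. These counts are from GENCODE transcripts and make no use of the libraries.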

How the data were processed

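Messenger RNA was measured in 8 libraries of 100 sorted cells each, 4 per age. Per the labels' protocols, cDNA was made into libraries with the Nextera XT kit, so strand is lost. The deposited tables give counts of total and unique reads over exons, introns and exon junctions for 48835 gene rows, per the file headers. Per the submitters' processing notes, mm10 was the build. Aligner, counting program and annotation: not given in the sources used here. Deposited RPKM values and the authors' own test were not used. Reads carry no molecular identifiers, so counting limits cover counting error only.

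Copies of a gene on several contigs were summed (969 genes), and 24 names turned into dates in 1 file were restored from the row order. Exon, intron and junction counts went into edgeR 4.0.16 under R 4.3.3 (TMM scaling, filterByExpr, quasi-likelihood fits on age alone, all 8 libraries). P-values were adjusted over all genes of a test by the Benjamini-Hochberg method, with a threshold of 0.05. The exon minus intron test was the interaction of age and read kind, with each library as a block. SEs, computed from F statistics, are approximate. The biological coefficient of variation (common to all genes) was 0.152, and each pair of replicates differed by more than counting noise. Library measures and marker sums were compared in Python 3.11.15 by exact permutation, two-sided. Positions are from RefSeq on GRCm38.p6. Running numbers in the column headers of 4-week replicates 1 and 2 are in the opposite order to their titles; the recorded sample of each file was used, so these 2 may be swapped in name.

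The members, the gene lists and the tests were chosen with earlier results of these data known. All 10 members are named. Of each further list, cell markers aside, the 2 genes with the smallest p were named. Up to 2 more were named where at least 5 were called. The 4 genes nearest in profile to Fos and to Egr1 were named as well. Cell markers were named outside this rule, as examples of their lists. Alternatives were each library left out, a block for replicate number, other filters, DESeq2 size factors, DESeq2 1.42.0, limma 3.58.1, copies not summed, unique reads, exon plus intron reads, and Y-linked reads as a covariate or a condition. Junction reads, and the 6 libraries with Y-linked reads for intron reads and for exon minus intron and junction reads, and the junction fits without each library, were added after seeing the data.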

Additional observations from a re-analysis of the deposited data

Results flagged for a closer look

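Atf3 stood out in P5 replicate 2, with 10.3 exon CPM, far from the 0 to 0.705 CPM of the other 3 P5 libraries. It was the one such case among 44 groups of 4 libraries checked. Chance alone flags about 1 group in 20, so 1 case among 44 groups is no more than chance gives.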

How the results depend on the processing

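Of the 4 members higher in exon reads, 4 were called in every fit without 1 library, and of the 2 lower, 2 were. With 977 genes higher and 1046 lower in exon reads over all genes, leaving out 1 library gave 702 to 985 and 795 to 1069. Junction reads gave 400 higher and 462 lower (303 to 408 and 352 to 497 without 1 library, 262 and 278 in the 6 libraries with Y-linked reads), with 0 members lower since the Jun genes have no junction. Y-linked reads as a covariate gave 628 higher and 608 lower, and those 6 libraries 619 and 638. In both, age rests on P5 replicates 2 and 4, and 1 member was lower, as with exon plus intron reads. For intron reads, 1188 genes were higher and 1168 lower, 674 and 607 with the covariate, 699 and 618 in the 6 libraries, and DESeq2 called 1 member lower, Egr1. For exon minus intron, limma called 109 higher and 89 lower against 378 and 351, junction reads 214 lower, and the 6 libraries 217 higher, each with 0 members lower. Leaving out 1 library gave 208 to 318 higher and 173 to 360 lower, the fewest without 4-week replicate 4. Without 4-week replicate 1 the numbers were 219 and 180, and without 4-week replicate 3 they were 235 and 206.

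Some differences that were not called changed sign, for Fosb, Ier3 and Atf3. The Fosb exon log2 fold change of 0.17 was -0.14 with exon plus intron reads, -0.096 without P5 replicate 2 and -0.048 without 4-week replicate 3, with 0.40 without P5 replicate 3 and 0.63 both with the covariate and in the 6 libraries. The Fosb intron value of -0.35 was 0.11 with the covariate and 0.12 in the 6 libraries. The Ier3 intron value of -0.052 was 0.50 and 0.51 in those settings, 0.16 without P5 replicate 1, 0.16 without P5 replicate 3, 0.18 without 4-week replicate 1, 0.056 without 4-week replicate 3 and -0.60 without P5 replicate 2. The Atf3 intron value of 1.13 was -0.50 without P5 replicate 2, 1.52 without P5 replicate 3, 1.85 with the covariate and 1.86 in the 6 libraries. The cause was not tested.

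Replicate numbers were not taken to pair the samples: deviations of libraries with the same number correlated at -0.031, -0.24, -0.095 and -0.052. The numbers of 4-week replicates 1 and 2 may be swapped, which would change these pairs and the block. With the replicate number as a block, 577 genes were higher in exon reads and Junb was no longer called (log2 fold change 0.75, adjusted p = 0.0515; range over all alternatives 0.000719 to 0.0515). Depth limits Fosl1 and Atf3, and the intron reads of Ier3.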
